A study of Rattus norvegicus with 10 samples.

Results

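Acute phase proteins are plasma proteins made mainly by hepatocytes, whose output by the liver shifts after infection or injury. The 10 genes below, all of this class, were followed here in rat liver after total-body irradiation (TBI): the genes for the protease inhibitor alpha-2-macroglobulin (A2m), orosomucoid (Orm1), haptoglobin (Hp), lipocalin 2 (Lcn2), the fibrinogen chains (Fga, Fgb and Fgg), ceruloplasmin (Cp), C-reactive protein (Crp) and inter-alpha-trypsin inhibitor heavy chain 4 (Itih4). They were chosen by name, each array probe being assigned to a gene through the RefSeq accession printed for it, and all 10 were found, with 15 probes among the 40945 probes tested and 13426 genes with a symbol. A gene is represented below by its brightest probe, and its other probes are given where they differ.

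The rats were male Wistar rats of the same study, and liver RNA was taken 24 h after irradiation. The control group (n = 3) received neither irradiation nor drug. The TBI group (n = 3) received 6.5 Gy per the labels, a dose that the study's text gives as slightly lower, from a cobalt source. The MASM + TBI group (n = 4) was irradiated in the same way after 30 mg/kg of MASM by mouth each day for 3 days. MASM is a derivative of matrine, an alkaloid of the plant Sophora flavescens. A group given MASM without irradiation was not analysed here, so an effect of MASM apart from irradiation cannot be told apart from its effect with it. Each array held the RNA of 1 rat, and how these rats were taken from larger treatment groups is not given in the sources used here.

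Values are log2 signals after quantile normalization, so a difference of 1 is a change of 2-fold. A gene was called at a Benjamini-Hochberg adjusted p under 0.05 in limma with a fold change of at least 1.5. Genes at an unadjusted p under 0.05 with the same fold, the size of threshold used in the study, were counted beside it by limma and by the methods' t-test, run on the same values.

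Transcription of these genes is known to be driven mostly by interleukin-6, through the factor STAT3, and by interleukin-1, through NF-kB and C/EBP factors. In rat liver cells Orm1 and Hp are classed with the genes that respond to interleukin-1 and interleukin-6 together, and A2m and the fibrinogen chains with those that respond to interleukin-6. Alpha-2-macroglobulin is the classical strong acute phase protein of the rat, whereas C-reactive protein circulates in healthy rats at a high level. Lipocalin 2 binds bacterial siderophores and is also stored in neutrophils. Ceruloplasmin carries copper, haptoglobin binds free haemoglobin, orosomucoid is a transport protein of plasma, and fibrinogen is the precursor of the clot.

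The 3 groups lay on 3 slides. All 3 TBI rats shared a slide of their own, so that TBI and slide cannot be told apart. The 3 control rats shared theirs with rat 3 of the MASM + TBI group, whose other members were on the remaining slide. Of the spots, 57.2% to 59.9% were well above background on control arrays, 64.1% to 70.1% on TBI arrays and 56.2% to 60.2% on MASM + TBI arrays. The array of TBI rat 3 stood apart, with a 75th percentile of 8.70 (log2) against 7.64 to 7.98 on the other arrays. A heat map in the study names the control and TBI arrays the other way round from the labels, whereas its list of fold changes for single genes is directed as the labels are. The direction of every difference below is that of the labels. All 10 hepatocyte markers with a probe had a signal over background on every array. Of 8 lymphocyte markers with a probe, 1 was well above background on every array, 4 were called lower in TBI and 0 higher, against 2.49% of all probes called lower. The called markers were Cd3g, Cd3e, Cd2 and Cd79b, chains or surface proteins of T and B cells, while the estimates for Cd4 and Lck were 0.71 and 0.55 (limma adjusted p = 0.285 and 0.349), both named after their values were seen. Cd3g was 7.16 on average in control and 3.55 in TBI (limma adjusted p = 0.00381), and was well above background on 3 of 3 control and 2 of 3 TBI arrays. Cd2 and Cd79b were well above background on all control arrays and on 0 TBI arrays, and Cd3e on none of either. The normexp background correction left 1 of the 4 calls and the methods' t-test 0. The summed lymphocyte signal was 8.39 to 8.57 in control rats, 6.61 to 7.74 in TBI rats and 6.63 to 7.16 in MASM + TBI rats. In whole liver, fewer cells of a type and less RNA per cell cannot be told apart.

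The upstream sequences of the genes that the results turn on are shown first, as the stretch in which letters known to bind the factors named above were sought. RefSeq promoter windows (build GRCr8) of 250 bases before the start were matched to 8 of the 10 genes. The letters sought on both strands were TTCNNNGAA for STAT factors, CTGGGAA for the interleukin-6 response element, TTGCNNAA for C/EBP and GGANTTTCC for NF-kB. Over all 33469 windows, they were found in 7.67%, 9.56%, 9.22% and 1.08% respectively. The windows of Orm1, the gene called in TBI, and of the fibrinogen genes Fga and Fgb are given 5′ to 3′ on the strand of the gene, with the matched letters in capitals.
Orm1 (chr5:81788259-81788508, plus strand): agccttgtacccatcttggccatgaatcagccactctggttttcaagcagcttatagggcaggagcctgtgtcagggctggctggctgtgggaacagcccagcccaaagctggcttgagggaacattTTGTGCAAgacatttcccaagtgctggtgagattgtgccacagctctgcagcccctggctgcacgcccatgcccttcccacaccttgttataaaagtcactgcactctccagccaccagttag
Fga (chr2:170671919-170672168, plus strand): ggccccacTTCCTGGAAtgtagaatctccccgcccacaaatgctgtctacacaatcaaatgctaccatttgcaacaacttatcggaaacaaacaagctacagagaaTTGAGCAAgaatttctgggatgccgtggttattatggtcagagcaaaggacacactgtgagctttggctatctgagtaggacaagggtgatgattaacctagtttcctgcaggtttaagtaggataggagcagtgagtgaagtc
Fgb (chr2:170700876-170701125, minus strand): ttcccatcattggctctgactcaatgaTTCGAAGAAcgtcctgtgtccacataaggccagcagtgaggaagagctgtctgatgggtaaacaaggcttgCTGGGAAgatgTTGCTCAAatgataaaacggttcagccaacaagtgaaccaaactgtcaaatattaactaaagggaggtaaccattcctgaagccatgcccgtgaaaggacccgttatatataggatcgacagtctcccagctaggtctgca

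The Orm1 window held 1 match, to C/EBP, starting 123 bases before the start. Fga held a STAT match 242 and a C/EBP match 144 bases before the start. Fgb held 3 matches, to STAT 223, to the interleukin-6 response element 152 and to C/EBP 141 bases before it. Fgg, which neighbours Fga and Fgb in the genome, held the interleukin-6 response element at 169 and 61 bases. The same element lay 245 and C/EBP 191 bases before the start in Lcn2, and C/EBP 72 bases before it in Cp. The windows of Fgg and Lcn2 overlap the annotated gene in part and that of Cp wholly, and they are not printed. The Cp window is chr2:104368420-104368669, whereas the annotated gene begins at 104368336. The Cp match and the Fgg match at 61 bases thus lie within the annotated gene, not upstream of it. Itih4 held C/EBP at 232 bases, and at 89 bases STAT and interleukin-6 letters that overlap. C/EBP letters were thus in 6 of the 8 windows and STAT letters in 3, while no window held the NF-kB letters and Crp held none of the 4 motifs. These matches are a description of letters, not of bound sites.

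Comparison of TBI with control asks which acute phase genes changed in the irradiated liver. Orm1 rose 3.01-fold, and the estimates for the remaining 9 genes, between 0.03 and 0.86 on the log2 scale, did not pass the test. Orm1 was 14.48, 15.35 and 15.18 in the control rats and 16.58, 16.94 and 16.27 in the TBI rats. Every TBI rat lay above every control rat. The log2 fold change was 1.59 (SE 0.34, 95% interval 0.81 to 2.37), with a limma adjusted p = 0.0357. Of the probes tested, 4.5% were called in this comparison, 2.01% as higher in TBI, so 1 called gene of 10 stands beside a share of that size. At the unadjusted threshold Orm1 was again the 1 gene, by limma against 12.6% of all probes and by the methods' t-test against 7.08%.

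**Figure D1:**
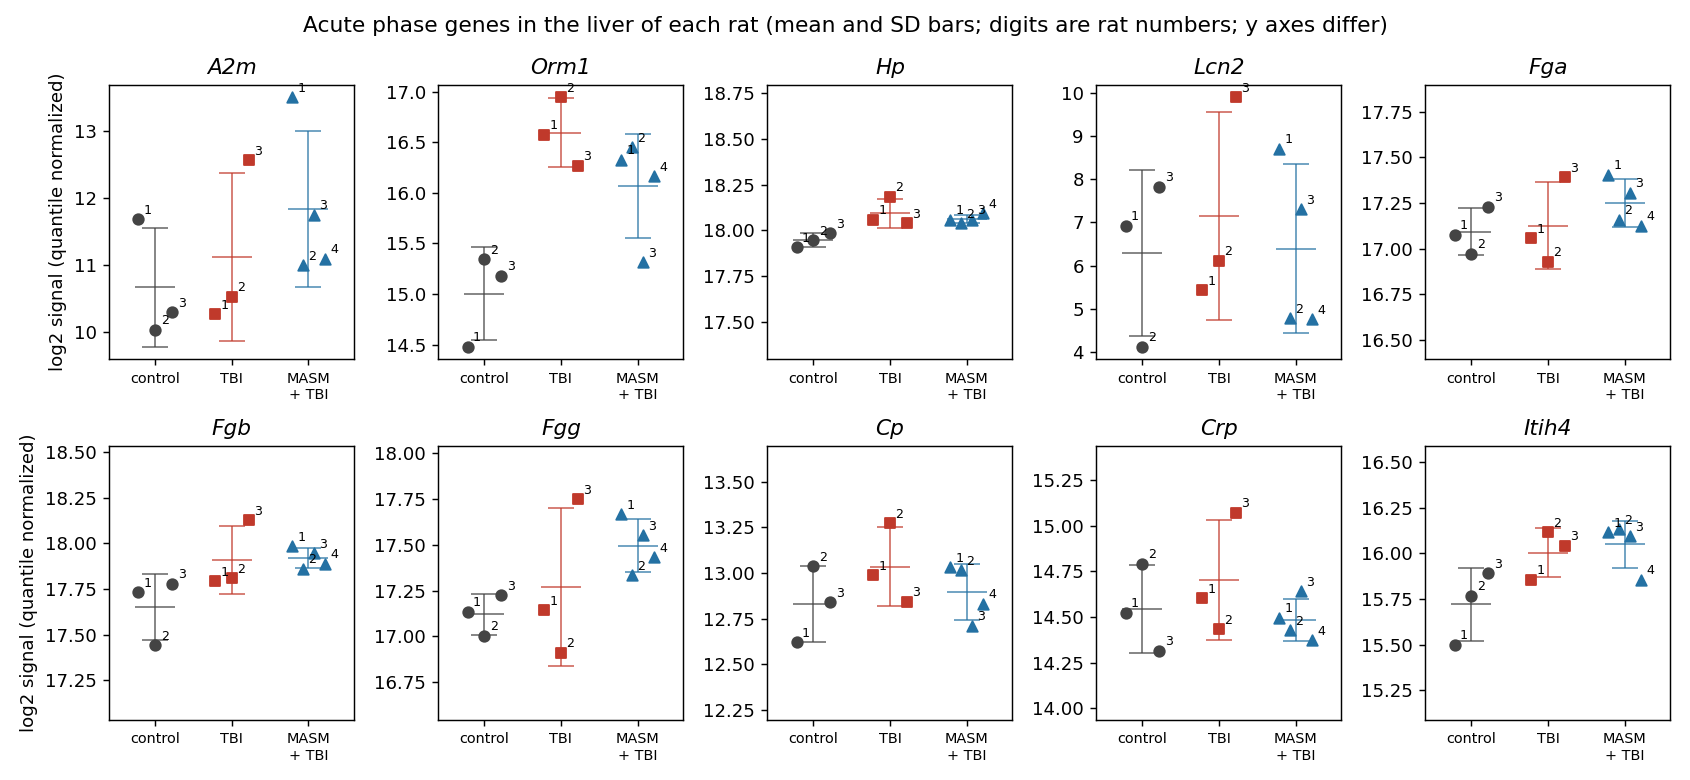
Log2 signal (y axis, quantile normalized, scale differing between panels) of each of the 10 acute phase genes in every rat, by group (x axis), with digits for the rat number and bars for the mean and SD. Orm1 lies between 16.27 and 16.94 in the TBI rats and between 14.48 and 15.35 in the controls, while A2m and Lcn2 spread over several log2 units within groups.

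The call of Orm1 depended on the samples in the fit, while its direction did not. The log2 fold change stayed between 1.33 and 1.77 over 20 alternatives, and the limma adjusted p was under 0.05 in 10 of them. Leaving out control rat 1, 2 or 3 gave adjusted p = 0.0930, 0.0606 and 0.0868. Leaving out TBI rat 1 or 2 gave 0.0717 and 0.0931, and leaving out MASM + TBI rat 1 or 4 gave 0.0541 and 0.0538. Without TBI rat 3, whose array stood apart, it was 0.0413. The call was also lost with a block for replicate number (adjusted p = 0.0680), and with a model of only the 2 groups (0.0638), and the methods' t-test gave 0.252 after adjustment.

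**Figure D2:**
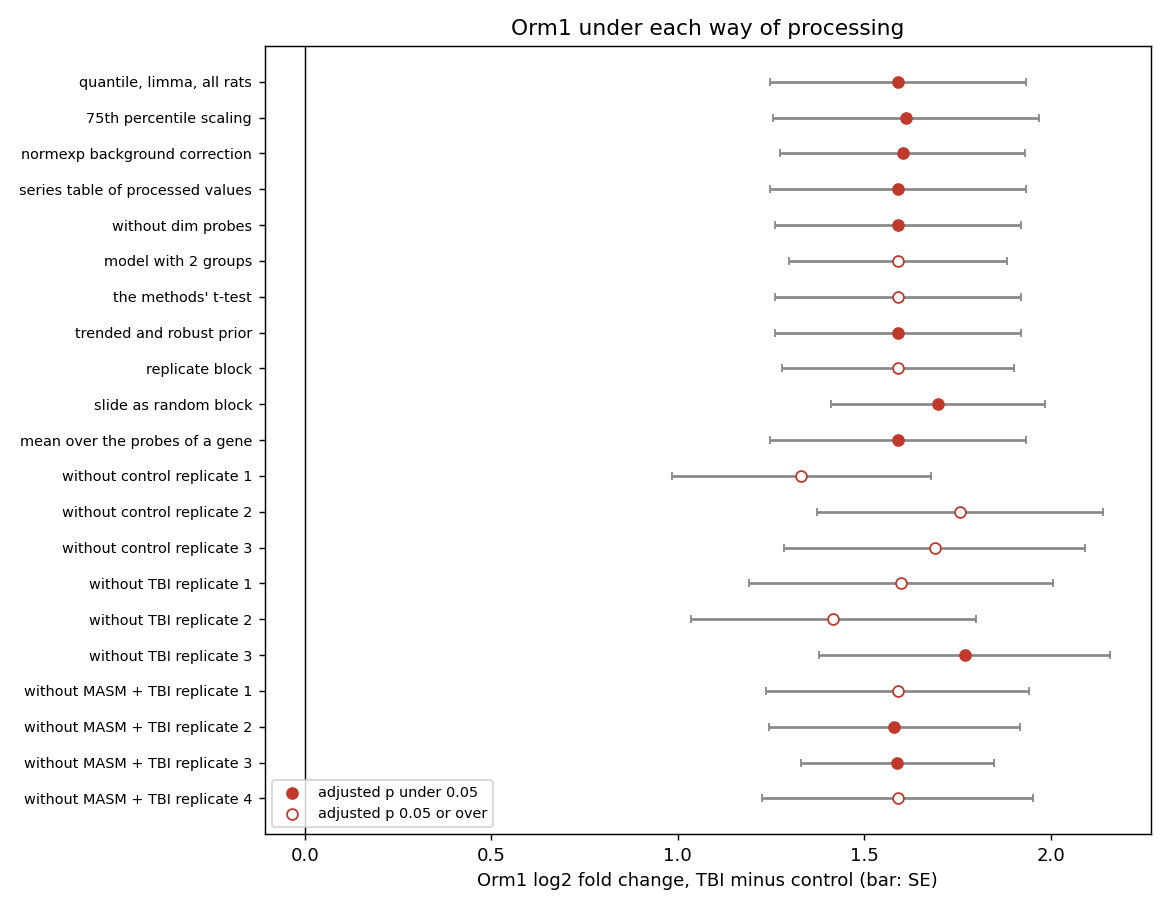
Orm1 log2 fold change, TBI minus control (x axis), under the processing reported and each alternative (y axis), with bars for the SE, filled points for an adjusted p under 0.05 and open points otherwise. Every estimate lies between 1.33 and 1.77, and both filled and open points occur among the fits that leave out a rat.

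Hp, named above with Orm1 for its response to interleukin-1 and interleukin-6, was not called. Its probe, among the brightest of the array, was 17.91, 17.95 and 17.98 in control, and 18.06, 18.18 and 18.04 in TBI. The groups did not overlap, as also in Orm1 and Fgb, 3 of 10 genes, against 11.3% of all probes with TBI above control. With 75th percentile scaling Orm1 and Itih4 separated, 2 of 10, against 11.7%. The log2 fold change of Hp was 0.15 (SE 0.07, limma adjusted p = 0.243). For a probe this near the top of the range, quantile normalization leaves little room for change between arrays. Scaled to the 75th percentile instead, Hp was 10.18, 9.97 and 10.11 in control and 10.39, 10.26 and 9.62 in TBI (log2 minus the percentile), a log2 fold change of 0.0016. That value rests on TBI rat 3, whose array stood apart: without it the difference on this scale was 0.24 (SE 0.11, limma adjusted p = 0.191), chosen after seeing the data, with both other TBI rats above every control.

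The fibrinogen chains, which are made together in hepatocytes and assembled into 1 protein, were not called, and their estimates were not tested against each other. In TBI against control they were 0.03 for Fga, 0.26 for Fgb and 0.15 for Fgg (limma adjusted p = 0.912, 0.247 and 0.692). Fga was 17.08, 16.97 and 17.23 in control and 17.06, 16.93 and 17.39 in TBI. Fgb was 17.73, 17.44 and 17.78 in control and 17.79, 17.81 and 18.13 in TBI, the TBI rats lying above the controls by a narrow margin. A second Fgb probe did not show this separation, with 17.86, 17.78 and 17.79 in control and 17.89, 17.95 and 17.79 in TBI. Fgg was 17.13, 17.00 and 17.22 in control and 17.14, 16.91 and 17.75 in TBI. By the brightest probes and quantile normalization rat 3 was the highest TBI rat for each chain, and without it the estimates of Fga and Fgg were -0.10 and -0.09. Its place depends on the scaling. With the 75th percentile it was the lowest TBI rat for Fgb, at 9.73 against 10.10 and 9.84 (log2 minus the percentile). For Fga it was 9.13, between 9.28 and 9.10, and for Fgg it stayed the highest, at 9.40 against 9.35 and 9.06.

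A2m and Lcn2 varied between rats of a group far more than the other genes. A2m was 11.69, 10.03 and 10.29 in control and 10.27, 10.53 and 12.57 in TBI, with a log2 fold change of 0.45 (SE 0.84, limma adjusted p = 0.783). Lcn2 was 6.92, 4.12 and 7.83 in control and 5.42, 6.12 and 9.90 in TBI, with 0.86 (SE 1.56, adjusted p = 0.777). TBI rat 3 was far above the other TBI rats for both genes, and without it the log2 fold changes were -0.27 for A2m and -0.52 for Lcn2. The 95% intervals, -1.46 to 2.36 for A2m and -2.71 to 4.42 for Lcn2, include large changes in either direction, and a change of that size was not detectable with these rats. Lcn2 was well above background on 2 of 3 control arrays and on all others.

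Cp, Crp and Itih4 showed no called change. In TBI, Itih4 was 15.86, 16.11 and 16.04 against 15.50, 15.77 and 15.89 in control, the lowest TBI rat lying below the highest control. Its log2 fold change was 0.28 (SE 0.13, limma adjusted p = 0.229). Cp was 12.62, 13.04 and 12.84 in control and 12.99, 13.27 and 12.84 in TBI, and Crp was 14.52, 14.79 and 14.32 against 14.60, 14.43 and 15.07. The estimates were 0.20 for Cp and 0.16 for Crp, and those of their other probes 0.40 and 0.22 for Cp and 0.02 for Crp. Over the 10 genes the median log2 fold change was 0.23, against -0.03 over all probes, and all 10 estimates were above 0. Leaving out TBI rat 3 turned 5 of them, those of A2m, Lcn2, Fga, Fgg and Crp, below 0.

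Comparison of MASM + TBI with control asks the same of the pretreated rats. No acute phase gene of the 10 was called by limma, against 2.35% of all probes. At an unadjusted p under 0.05 there were 3 genes, Orm1, Fgb and Itih4, against 17% of all probes, and Orm1 alone of them reached 1.5-fold, against 8.06% of probes. The methods' t-test had Orm1 alone at the unadjusted threshold, against 5.75% of probes, and called 0 after adjustment. This group shares its control rats with the comparison above, so both rest on the same 3 values.

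Orm1 was 16.33, 16.45, 15.32 and 16.16 in MASM + TBI, with a log2 fold change of 1.06 over control (SE 0.32, 95% interval 0.33 to 1.79, limma adjusted p = 0.130). Rats 1, 2 and 4 lay above every control rat, whereas rat 3 lay within the control range. With 75th percentile scaling rat 3, at 7.50, lay above the controls as well, which were 6.57, 7.30 and 7.23 (log2 minus the percentile), so its place depends on the scaling. Rat 3 was also the only MASM + TBI rat on the slide of the controls: within that slide the difference was 0.31, and for the rats on the other slide 1.31. The part of the slide in this was not tested. With slide as a random block the limma adjusted p was 0.0416, and with slide as a fixed block 0.767. The random block had a negative correlation within slides (-0.13) and a lower SE, 0.29. Its p therefore does not allow for a shift shared by the rats of a slide.

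**Figure D3:**
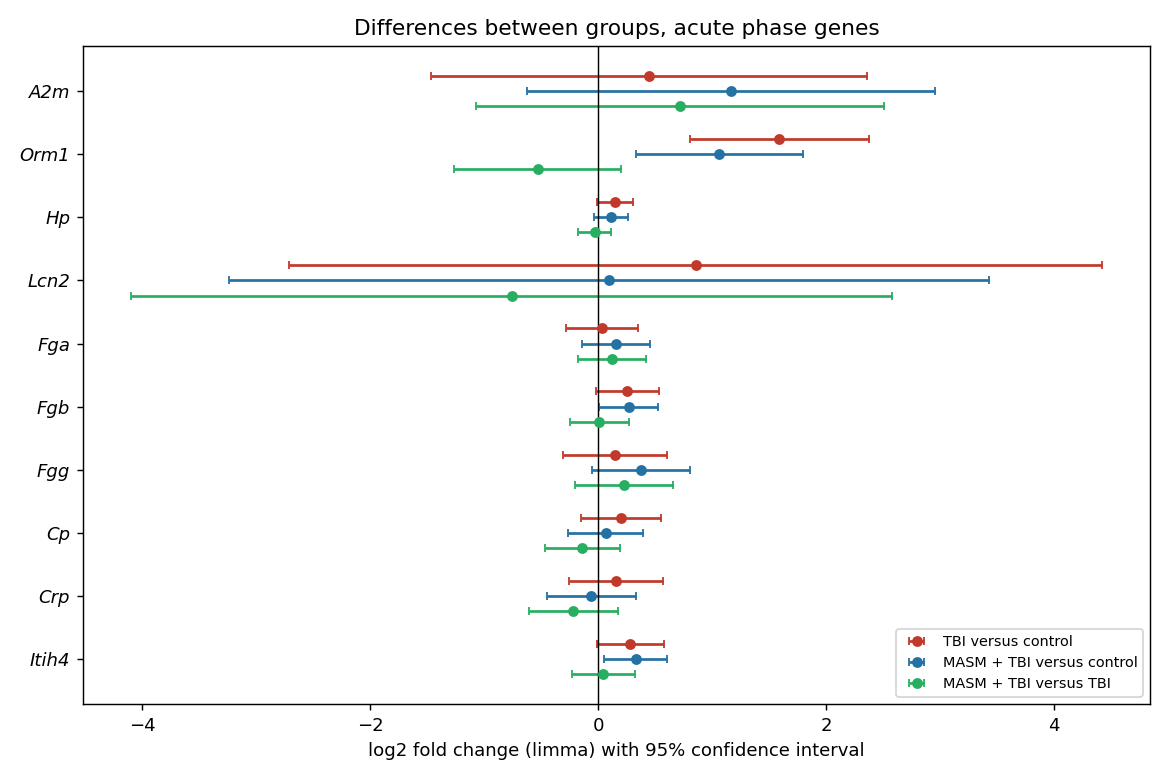
Limma log2 fold change (x axis) of each acute phase gene (y axis) with its 95% interval for TBI against control, MASM + TBI against control and MASM + TBI against TBI. The interval of Orm1 lies above 0 in both comparisons with control, from 0.81 to 2.37 in TBI and from 0.33 to 1.79 in MASM + TBI, and the intervals of Lcn2 and A2m are the widest.

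For A2m, MASM + TBI rats 1 to 4 gave 13.51, 11.00, 11.75 and 11.10, with a log2 fold change of 1.17 (SE 0.78, limma adjusted p = 0.527) and 0.61 without rat 1. Rat 1 stood above all other rats of the study. Lcn2, at 8.72, 4.77, 7.31 and 4.75, gave 0.10 (SE 1.46), and the same 2 rats, 1 and 3, were high for both genes. Of the neutrophil markers, 2 of 8 were well above background on every array. Their summed signal was 9.10, 8.61 and 9.32 in control rats 1 to 3, the order of Lcn2 in that group. It was 8.65, 9.66 and 9.21 in TBI rats 1 to 3 and 9.70, 9.32, 8.52 and 8.77 in MASM + TBI rats 1 to 4. MASM + TBI rat 1 was thus the highest of its group for both, while rat 3, second for Lcn2, had the lowest neutrophil sum, and TBI rat 3, highest for Lcn2, was second. The part of neutrophils in the Lcn2 signal was not tested.

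No fibrinogen chain was called in the pretreated rats either. Fga was 17.40, 17.16, 17.31 and 17.13 in the MASM + TBI rats, Fgb 17.98, 17.86, 17.95 and 17.89, and Fgg 17.67, 17.33, 17.55 and 17.43. The estimates over control were 0.16, 0.27 and 0.38 with SE 0.13, 0.11 and 0.19. All MASM + TBI rats lay above all control rats for Fgb and Fgg, and for Hp, 3 of 10 genes, against 9.35% of probes. Which genes separated depended on the scaling: with the 75th percentile they were Orm1, Fgb, Fgg and Itih4, 4 of 10, against 10.3% of probes. The second Fgb probe gave -0.03, with overlapping groups, and the second Fgg probe 0.13, with overlapping groups (MASM + TBI rat 4 and the lowest control were both at 16.50), so the separation of Fgb and that of Fgg each rest on 1 of 2 probes. Hp was 18.06, 18.04, 18.06 and 18.09, a difference of 0.12 over control.

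Itih4 was 16.11, 16.13, 16.10 and 15.86, with a difference of 0.33 (SE 0.12, limma adjusted p = 0.207). Cp, at 13.03, 13.02, 12.71 and 12.83, gave 0.06, and its other probes gave 0.31 and 0.39, so the probes of Cp differ in size. Crp, at 14.50, 14.43, 14.64 and 14.37, gave -0.06 and was the lone gene with an estimate below 0. The median over the 10 genes was 0.21, against 0.0024 over all probes.

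Comparison of MASM + TBI with TBI asks whether pretreatment altered the response of these genes. None of the 10 was called by limma, against 1.39% of all probes, and none was below an unadjusted p of 0.05, against 17%. The methods' t-test called 0 after adjustment and had 0 at the unadjusted threshold, against 4.03% of probes. The estimates were above 0 in 5 genes and below in 5, with a median of -0.01. Orm1 was lower by an estimate of -0.53 (SE 0.32, limma adjusted p = 0.451), with a 95% interval from -1.26 to 0.20 that covers both a fall of more than 2-fold and no change. For the fibrinogen chains the intervals were -0.17 to 0.42 in Fga, -0.25 to 0.27 in Fgb and -0.20 to 0.66 in Fgg, and the second probes of Fgb and Fgg gave estimates of -0.10 and -0.08 against 0.01 and 0.23 for the brightest. For Hp it ran from -0.18 to 0.12 and for Itih4 from -0.23 to 0.32. A2m gave 0.72 (SE 0.78) and Lcn2 -0.76 (SE 1.46), each with an interval on both sides of 0.

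Across the 3 groups together, Orm1 had the lowest F test p of the 10 genes in limma, with an adjusted p = 0.0616 over all probes. The 10 genes, summed on the linear scale, gave log2 19.66 to 19.81 in control rats, 19.89 to 20.12 in TBI rats and 19.94 to 20.08 in MASM + TBI rats. Hp and the fibrinogen chains, the brightest of the 10 and none of them called, weigh most in this sum. Control and TBI rats also separated in the sums of other lists. Endothelial markers were 13.65 to 13.94 in control and 14.04 to 14.34 in TBI, and hepatocyte markers 20.11 to 20.15 and 19.86 to 20.06. Sums of neutrophil and of Kupffer cell markers overlapped.

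Since the genes differed between rats of a group, the deviation of each rat from its group mean was compared between the genes, over 45 pairs and 10 rats with an exact permutation test within groups (two-sided). By the brightest probe of each gene, Lcn2 varied together with the fibrinogen chains. Pearson's r was 0.923 with Fga, 0.907 with Fgb and 0.837 with Fgg, with permutation p = 0.00347, 0.00231 and 0.00694 and adjusted p = 0.0313, 0.0313 and 0.0446. Spearman's rho was 0.818, 0.891 and 0.794, with permutation p = 0.0220, 0.00231 and 0.0197 and adjusted p = 0.110, 0.0521 and 0.110. Leaving out the 2 rats farthest from the median of Lcn2, TBI rat 3 and MASM + TBI rat 1, r was 0.845, 0.899 and 0.691. The relation with Fgb rests on 1 of 2 probes: the second Fgb probe, for which rat 3 was the lowest TBI rat, gave r = -0.277 with Lcn2 (exact permutation p = 0.595). The second Fgg probe gave 0.750 (exact permutation p = 0.0660, adjusted 0.191 over the 8 pairs formed with other probes).

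By the same probes the chains varied with each other. r was 0.949 for Fga and Fgg, 0.865 for Fga and Fgb and 0.836 for Fgb and Fgg, with permutation p = 0.00231, 0.00463 and 0.00347 (adjusted 0.0313, 0.0347 and 0.0313). Their rho was 0.891, 0.782 and 0.830 (permutation p = 0.00810, 0.0174 and 0.00579, adjusted 0.0729, 0.110 and 0.0651). Without the 2 farthest rats r was 0.897, 0.781 and 0.835. The second Fgb probe gave -0.571 with Fga and -0.703 with Fgg, the opposite sign. With the second Fgg probe r was 0.888 for Fga and 0.610 for Fgb, and of the 8 pairs formed with other probes none passed 0.05 after adjustment (exact permutation, lowest adjusted p = 0.139). A2m varied with Lcn2 by r = 0.845 and rho = 0.855 (permutation p = 0.0116 for each, adjusted 0.0651 and 0.0868), and r was 0.646 without the same 2 rats.

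Orm1, in turn, varied with Cp by 1 of the 3 Cp probes, the brightest. Their r was 0.898 and rho 0.879 (permutation p = 0.00231 and 0.00347, adjusted 0.0313 and 0.0521), and r was 0.917 without MASM + TBI rat 3 and control rat 1. With Lcn2 the r of Orm1 was -0.436, and with the chains it was between -0.486 and -0.397, each with an adjusted p over 0.05. The other Cp probes gave r = 0.478 and 0.501 with Orm1 (exact permutation p = 0.205 and 0.199). Orm1 and the brightest Cp probe were the lowest of their group in control rat 1, TBI rat 3 and MASM + TBI rat 3, whereas by the other Cp probes TBI rat 3, at 12.53 and 11.84, was the highest TBI rat.

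Several of these values of r were smaller with another scaling of the arrays. With the 75th percentile in place of quantile normalization, none of the 45 pairs passed 0.05 after adjustment. The smallest p that the 864 arrangements allow is 0.00116, which gives 0.0521 after adjustment for 45 pairs when 1 pair alone reaches it, so a lone pair could not pass. The r of Lcn2 was then 0.516 with Fga, 0.144 with Fgb and 0.746 with Fgg (permutation p = 0.183, 0.786 and 0.0532). Between the chains r was 0.683 for Fga and Fgg, 0.693 for Fga and Fgb and 0.484 for Fgb and Fgg (permutation p = 0.0671, 0.0775 and 0.329). These p-values are all above 0.05 before adjustment, so the limit does not account for them. The r of Lcn2 and A2m was 0.846 and that of Orm1 and Cp 0.870 (permutation test, adjusted p = 0.260 and 0.0521), the latter at that limit.

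With the normexp background correction none of the 45 pairs passed either, under the same limit. The r of Lcn2 was 0.939, 0.812 and 0.894 with Fga, Fgb and Fgg, and between the chains it was 0.898 for Fga and Fgg, 0.655 for Fga and Fgb and 0.714 for Fgb and Fgg. Orm1 and Cp gave 0.852, again with the smallest p allowed. Without TBI rat 3, with the rest normalized again, the Lcn2 values were 0.883, 0.846 and 0.783, those between the chains 0.925, 0.728 and 0.650 in the order just given, and that of Orm1 and Cp 0.890. These settings, the omission of TBI rat 3 and the use of other probes were chosen after seeing the data.

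**Figure D4:**
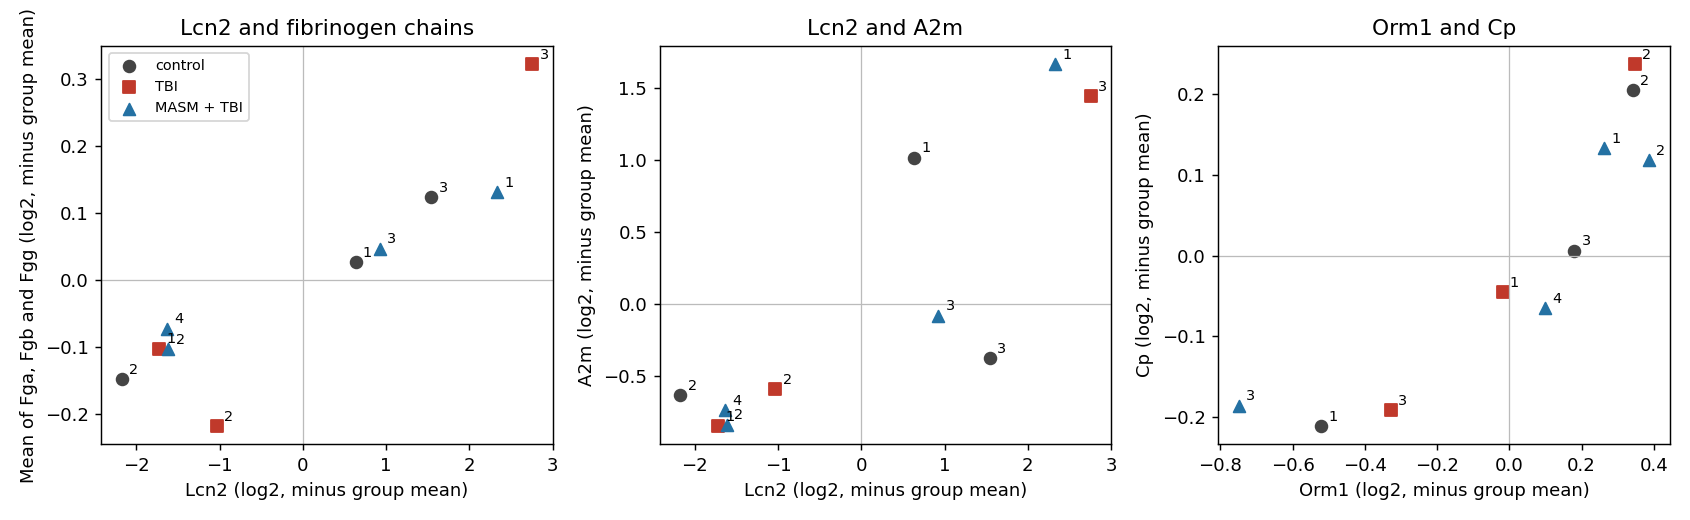
Deviation of each rat from its group mean (log2, quantile normalized, brightest probe of each gene) for Lcn2 against the mean of the fibrinogen chains, Lcn2 against A2m and Orm1 against Cp, with digits for the rat number. Lcn2 and the fibrinogen mean are high together in TBI rat 3, MASM + TBI rat 1 and control rat 3, while Orm1 and Cp are low together in control rat 1, TBI rat 3 and MASM + TBI rat 3.

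Centred profiles over the 10 rats were compared among genes with a symbol and a signal well above background on every array of at least 1 group. These were 9576 genes for A2m and for Lcn2 and 9574 for the fibrinogen mean. Among them, those nearest to A2m, by root mean square difference, were Igfbp2 (0.616), Slc49a3, Chek1, Cyp51 and Aacs. Those nearest to Lcn2 were Scgb1c1 (1.24), A2m, Comp, Igfbp2 and Rnf43, and those nearest to the mean of the fibrinogen chains Actr10 (0.0799), Tfg, Rheb, Zfp281 and Sec22a. The chains differed from each other by 0.159 to 0.179. These are distances over 10 arrays, and they rank the genes without a test.

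Other acute phase genes give the setting of the 10. Of 26 further positive acute phase genes with a probe, 4 were called higher in TBI and 0 lower, against 2.01% and 2.49% of all probes. The estimates were above 0 in 20 and below in 6, with a median of 0.19. Pla2g2a, a secreted phospholipase, rose from 5.60, 5.09 and 6.48 in control to 8.75, 8.10 and 7.95 in TBI (log2 fold change 2.54, SE 0.39, limma adjusted p = 0.0110). Lbp, which binds bacterial lipopolysaccharide, rose from 9.96, 10.13 and 10.48 to 11.31, 11.92 and 11.25 (1.30, SE 0.23, adjusted p = 0.0179). The kininogen genes Kng1 and Kng2 rose by 1.74 and 1.55 (adjusted p = 0.0214 and 0.0188). Kininogens release kinins and inhibit cysteine proteases, and since the genes are near-identical their probes may share signal. Every TBI rat lay above every control rat for 12 of the 26 genes, against 11.3% of all probes, and below for 2. The 4 called genes are among the 12, but as they were picked by their difference, their separation is no added support. Mt1 and Mt2A, metallothioneins that bind zinc and copper, had estimates of -1.37 and -1.89 (adjusted p = 0.232 and 0.143). They were named after their values were seen, and every TBI rat lay below every control rat for both, as in 19% of all probes. With a model of only the 2 groups and by the methods' t-test 0 of the 26 genes were called, with a block for replicate number 3 were, and without control rat 1 there were 2. With 75th percentile scaling and with slide as a random block 6 were called, all higher. Of all 40945 probes, 1609 and 2018 were called higher in these fits, against 821 with quantile normalization and no block.

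In MASM + TBI against control, Kng1 (1.39, SE 0.30, limma adjusted p = 0.0492) and Kng2 (1.24, SE 0.26, adjusted p = 0.0444) were called, 2 of 26 against 2.35% of all probes. No gene of the set was called when any control or MASM + TBI rat or TBI rat 3 was left out, or with a block for replicate number. With 75th percentile scaling 3 were called and with slide as a random block 5, where 791 and 1805 of all 40945 probes were called. Pla2g2a in MASM + TBI was 6.95, 6.25, 7.18 and 7.11, below every TBI rat. Its difference from TBI was -1.40 (SE 0.37, limma adjusted p = 0.119), and no gene of this set was called between the irradiated groups. With 75th percentile scaling or slide as a random block 1 was, as lower, where 899 and 722 of all 40945 probes were called lower.

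**Figure D5:**
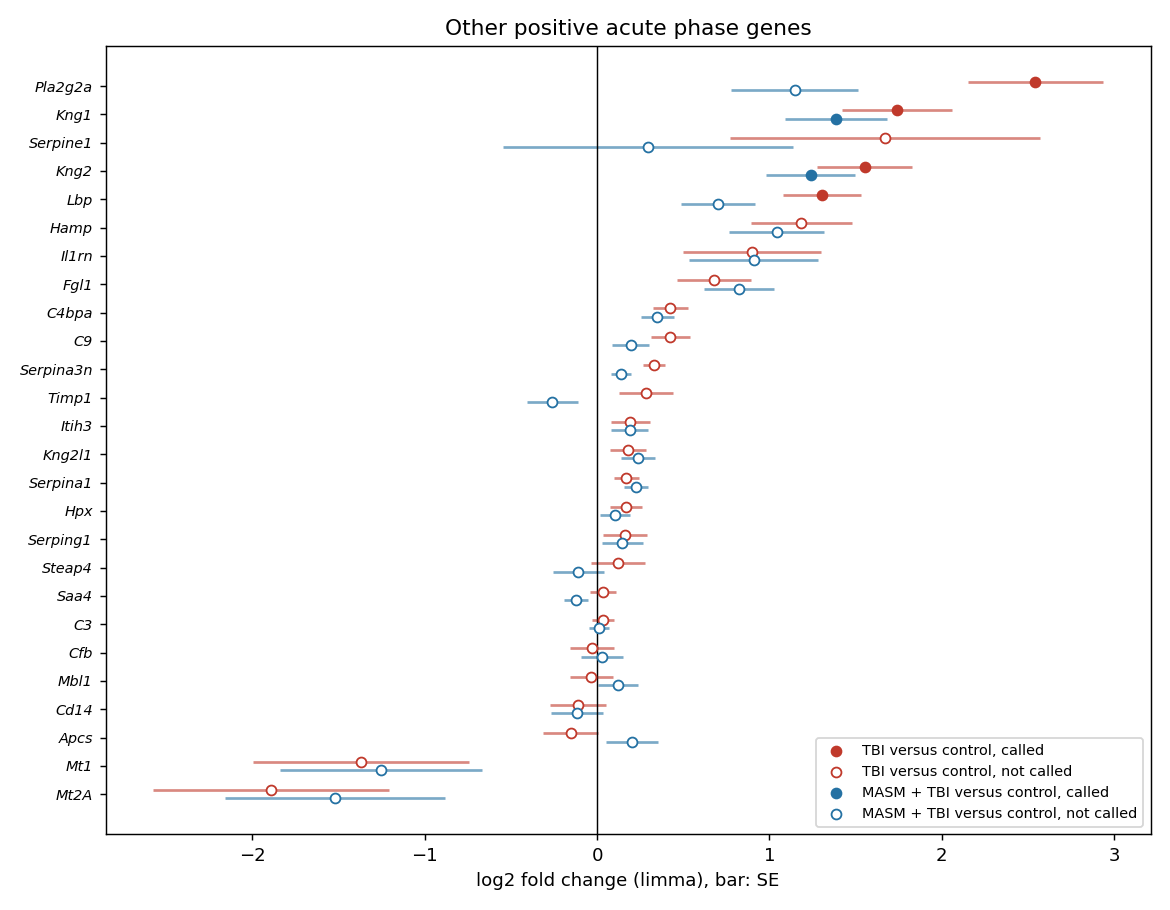
Limma log2 fold change (x axis, bars for the SE) of 26 other positive acute phase genes (y axis) in TBI and in MASM + TBI, each against the same control rats, with filled points for called genes. Pla2g2a, Kng1, Kng2 and Lbp are called in TBI, and Kng1 and Kng2 in MASM + TBI.

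Of 12 negative acute phase genes, whose products fall in plasma during inflammation, 1 was called lower in TBI, against 2.49% of all probes. This was Serpina6, the corticosteroid carrier of plasma. It was 12.87, 13.31 and 12.95 in control and 11.39, 12.11 and 12.11 in TBI (log2 fold change -1.17, SE 0.21, limma adjusted p = 0.0191). It was not called without control rat 2 or control rat 3, with a block for replicate number, with a model of only the 2 groups or by the methods' t-test. With 75th percentile scaling or without TBI rat 3 the set had 2 called genes, where 6950 and 2302 of all 40945 probes were called. In MASM + TBI Serpina6 was 12.22, 12.03, 12.35 and 12.19, a difference of -0.84 (limma adjusted p = 0.0610), and 0 genes of this set were called.

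Of 28 genes for cytokines, their receptors and the factors that act on acute phase genes, 1 was called in TBI, a share near the 4.5% of all probes. This was Il6r, the interleukin-6 receptor, which fell from 11.05, 11.28 and 11.13 in control to 10.15, 10.51 and 10.46 (log2 fold change -0.78, SE 0.11, limma adjusted p = 0.00912). It was not called with a model of only the 2 groups or by the methods' t-test. With 75th percentile scaling the set had 2 called genes, 1 higher and 1 lower, where 6950 of all 40945 probes were called. In MASM + TBI Il6r was 10.75, 10.95, 10.83 and 10.90, above every TBI rat and below every control rat. Its difference from TBI was 0.48 (SE 0.11, limma adjusted p = 0.0745), and 0 genes of this set were called in either comparison of MASM + TBI. Without TBI rat 1, 3 of the 28 genes were called in TBI against control and 2 between the irradiated groups, where 1736 and 1077 of all 40945 probes were called. Without control rat 1 there was 1 in each comparison of MASM + TBI, with control and with TBI, where 860 and 453 probes were called. No gene of the neutrophil, Kupffer cell, hepatocyte or endothelial markers was called in any of the 3 comparisons with quantile normalization and all rats. With 75th percentile scaling 3 of 10 hepatocyte markers (1 higher, 2 lower), 1 of 8 neutrophil markers and 1 of 5 endothelial markers were called in TBI against control. Of all 40945 probes, 6950 were called in that fit. The 8 Kupffer cell markers with a probe, genes of the resident macrophages of the liver, all had lower estimates in MASM + TBI than in TBI, with a median of -0.70 against 0.04 over all probes. Against control, their estimates were higher in TBI for 7 of 8 (median 0.46) and lower in MASM + TBI for 6 of 8 (median -0.15). Every TBI rat lay above every control rat for 1 of the 8. The summed signal of these markers overlapped, at 15.5856 to 16.4684 in TBI, the lowest being rat 1, and 15.5909 to 16.0825 in control. Between the irradiated groups 4 passed the unadjusted threshold in limma, against 7.98% of all probes. Without TBI rat 1 limma called 3, where 1077 of all 40945 probes were called.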

How the data were processed

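Liver RNA of 10 rats was labelled with Cy3 and hybridised to 1 Agilent rat array per rat. The authors deposited background-subtracted intensity values per spot (Feature Extraction 10.7.3.1), not normalized between arrays, and a table of the same intensities, from which the scanner values differed by 0. Control spots and outlier flags were left out, and log2 intensities were quantile normalized, as the study's methods state, and averaged by probe. The 67 probes without a value on 1 or more arrays were left out. Symbols came from RefSeq accessions, so 16950 probes had one. Differences were fitted with limma 3.58.1 (R 4.3.3), 3 group means over 10 arrays and Benjamini-Hochberg adjustment over 40945 probes, and tested on simulated data. Figures were drawn with matplotlib 3.10.9 in Python 3.11.15. The number of arrays limits the precision. Bright spots were scaled up by the software from a scan at lower gain, on all 10 arrays for Hp, the fibrinogen chains and Itih4, on 9 for Orm1 and Crp (control rat 1 and control rat 3 excepted) and on 0 for A2m, Lcn2 and Cp. No spot was saturated.

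The members, gene lists and tests were chosen with earlier results of these data known. Named genes are the 10 members, up to 4 called genes with the lowest adjusted p of each other list and comparison or, where none was called, up to 2 with the lowest p, and the 5 genes nearest to A2m, Lcn2 and the fibrinogen mean. Mt1, Mt2A, Cd4 and Lck fall outside this rule and were named after their values were seen. The lists were other positive and negative acute phase genes, cytokine signalling, and markers of hepatocytes, neutrophils, Kupffer cells, lymphocytes and endothelium. The alternatives were 75th percentile scaling, normexp (offset 50, from median pixels), the processed values as deposited, dropping dim probes, fitting only 2 groups, the methods' t-test (unequal variances), a prior both trended and robust, replicate or slide as a block, averaging a gene's probes, and omitting each rat.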

Additional observations from a re-analysis of the deposited data

Results flagged for a closer look

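Itih4 in MASM + TBI rat 4 stood apart from the other rats of its group, at 15.86 against 16.10 to 16.13 (log2 signal). The gap was 0.87 of the range of the group, over Dixon's 95% limit for 4 samples. The 10 acute phase genes were examined in this way, and chance marks about 1 in 20 groups.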

How the results depend on the processing

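Of the recomputed fold changes of the 10 genes, 575 kept their direction and their side of the threshold, 24 changed sign, 10 (Orm1 in TBI) lost and 1 (Orm1 in MASM + TBI) gained significance. The count of genes called in TBI against control, 1, was 0 with a model of 2 groups and with the methods' t-test, and ran from 0 to 1 with each rat left out. In MASM + TBI against control it was 1 with slide as a random block (consensus correlation -0.13), and between the irradiated groups it was 0 under every alternative listed. Values that changed sign, none of them called, were 0.093 (75th percentile) and 0.10 (slide as fixed block) for Crp, -0.12 (fixed block) for Cp and -0.10 (random block) for Lcn2 in MASM + TBI against control, and 0.083 (75th percentile) for Hp and -0.043 (mean over probes) for Fgb between the irradiated groups. With each rat left out, TBI against control ran from -0.27 to 0.96 for A2m, -0.52 to 1.72 for Lcn2, -0.10 to 0.14 for Fga, -0.095 to 0.33 for Fgg and -0.026 to 0.29 for Crp. MASM + TBI against control ran from -0.040 to 0.17 for Cp, -0.99 to 0.87 for Lcn2 and -0.18 to 0.066 for Crp. MASM + TBI against TBI ran from -0.050 to 0.12 for Fgb, -0.056 to 0.015 for Hp, -1.63 to 0.62 for Lcn2 and -0.029 to 0.11 for Itih4. With the second Fgb probe the within-group r changed sign, to -0.28 with Lcn2, -0.57 with Fga and -0.70 with Fgg. The cause was not tested.

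The replicate numbers did not pair the rats: the deviations of same-numbered rats correlated between -0.13 and 0.17. With a block for replicate number the genes called were 0 in TBI, 0 in MASM + TBI and 0 between the irradiated groups, and the probes called fell from 1842, 963 and 570 to 1026, 298 and 22. With 75th percentile scaling they were 6950 (1609 higher), 791 and 5137 (4238 higher), against 821 and 314 higher before. Normexp gave 553, 455 and 79 (68 higher), the methods' t-test 10, 28 and 3, slide as a random block 4078, 1805 and 1401, and as a fixed block 525 (376 higher against 379 of 963) in MASM + TBI against control. A model of 2 groups gave 943 in TBI and 255 between the irradiated groups, and leaving out each rat from 904 to 2302, 459 to 1045 and 245 to 1082, the highest without TBI rat 3.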
